A study of Homo sapiens with 6 samples.

Results

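Cell division needs motors that move chromosomes, a scaffold on the centromere that holds them, rings that fold them and kinases that time the steps. Of the 8529 genes in the mRNA table of this study, 62 have symbols that begin with KIF, CENP, NCAP, BUB, SMC, SKA, MAD2, AURK or PLK. These 62 genes were found by their names alone, but the prefixes were chosen with earlier results of these data known. There were 21 KIF genes, 13 CENP, 6 NCAP, 3 BUB, 7 SMC, 3 SKA, 3 MAD2, 2 AURK and 4 PLK genes. Of these, 4 were set apart as outside the families. They are SMCR8, a partner of C9ORF72, SKAP2, an adaptor of Src kinases, CENPBD1, named for a DNA-binding domain like that of CENPB, and AURKAIP1, a mitochondrial ribosomal protein named for Aurora kinase A. The other 58 genes encode members of the families that the prefixes stand for or proteins tied to them by name or binding, such as KIFAP3, KIF1BP and MAD2L1BP, which bind kinesins or MAD2, and CENPJ, a centriole protein. KIF3A, SMC2, SKA3 and AURKB were not analysed here.

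The RNA came from SW480, an epithelial cell line derived from a human colorectal adenocarcinoma, labelled as wild type. Both groups had the same genotype and were cultured without added CO2 in Leibovitz L-15 medium with foetal bovine serum, and they differed in the hydrogel beneath the cells, which had a stiffness of 2 kPa in the soft group and 25 kPa in the stiff group. After 72 h the RNA was sequenced, with 3 libraries per stiffness. One line on one type of gel limits the model, and the labels describe triplicates without saying that they were independent cultures, so that p-values measure only the spread between these libraries, which may be technical. The comparison asks how the RNA of tumour cells differs between a soft and a stiff support.

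Kinesins are motors that walk along microtubules or take them apart, and separate families serve the spindle, the cilium and the transport of organelles. On each chromosome, CENP proteins build the kinetochore upon chromatin that carries the histone CENPA, SKA and NDC80 complexes attach it to microtubules, and BUB and MAD2 proteins form the spindle assembly checkpoint, which holds the cell before anaphase until every kinetochore is attached. SMC proteins are the hinged ATPases of condensin, which compacts chromosomes, of cohesin, which holds sister chromatids together, and of SMC5/6, which acts in repair. Many of these genes are transcribed mainly in G2 and mitosis, so in bulk RNA more cells in division and more RNA in each dividing cell cannot be told apart.

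Values are FPKM, fragments scaled to the length of the transcript and to the mapped fragments of the library. The depth of the libraries is unknown. Across all genes, the FPKM of a library summed to 201030 to 235728 at 2 kPa and to 231714 to 263028 at 25 kPa, and both extremes were a replicate 2. Of 11 epithelial markers, 8 were in the table: KRT18 was at 2611 to 3358 FPKM and EPCAM at 64.7 to 101 FPKM, whereas KRT20 and CDX1 were at 0.02 to 0.24 FPKM. Fold changes were below 0 in 6 of the 8, and KRT19 (1448 to 1623 FPKM at 2 kPa, 909 to 1402 FPKM at 25 kPa) and CDX2 (0.57 to 0.79 and 0.07 to 0.31 FPKM) were lower at 25 kPa without overlap, though none passed an adjusted p of 0.05 in limma (1 had an unadjusted p under 0.05). The summed FPKM of the 8, most of it KRT18, was 4481 to 4811 at 2 kPa and 3690 to 4862 at 25 kPa. Of 13 immune, endothelial and fibroblast markers, 2 were in the table (ACTA2 and LUM), and their sum was 0.68 to 1.91 FPKM at 2 kPa and 2.52 to 2.84 FPKM at 25 kPa. The part of these markers in the results was not tested, and the remaining 11 markers, PTPRC, PECAM1 and COL1A1 among them, were not analysed here.

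Genes of the spindle, the kinetochore and condensin had mostly higher means on the stiff gel. The mean of log2(FPKM + 1) was higher at 25 kPa in 50 of the 62 genes (80.6%), against 59.6% of all genes tested. In 23 genes (37.1%) every 25 kPa library lay above every 2 kPa library, against 11.2% of all genes, and in 1 gene, PLK3, every 25 kPa library lay below, against 4.78%. Here and below, overlap was judged on the deposited values unless another setting is named. None of the 62 passed an adjusted p of 0.05 in limma with Benjamini-Hochberg adjustment over all genes, and 0.117% of all genes did (10 genes). At an unadjusted p under 0.05, limma gave 24 of the 62 genes higher (38.7%, against 6.96% of all genes) and 1 lower (against 3.19%). With every library rescaled to the same FPKM sum it gave 12 higher and 2 lower, and the shares of all genes at that p were not counted there. The smallest adjusted p in limma was 0.0759, for KIF2C, so no single gene here was shown to differ between the stiffnesses.

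The median log2 fold change, 25 kPa minus 2 kPa on the log2(FPKM + 1) scale, was 0.42 over the 62 genes and 0.05 over all genes, and 0.45 over the 58 genes left without the 4 set apart. Under that rescaling, 11 of the 62 genes were higher without overlap, against 5.33% of all genes, and 3 were lower, against 7.79%. The median of the 62 was then 0.33 and that of all genes −0.02. Within each library, the median deviation of the 62 genes from their own means can be set against that of all genes. This difference was −0.08, −0.15 and −0.25 in the libraries at 2 kPa and 0.27, 0.03 and 0.26 at 25 kPa. All 3 soft libraries were thus below 0 and all 3 stiff libraries above it, with replicate 2 at 25 kPa close to 0.

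**Figure D1:**
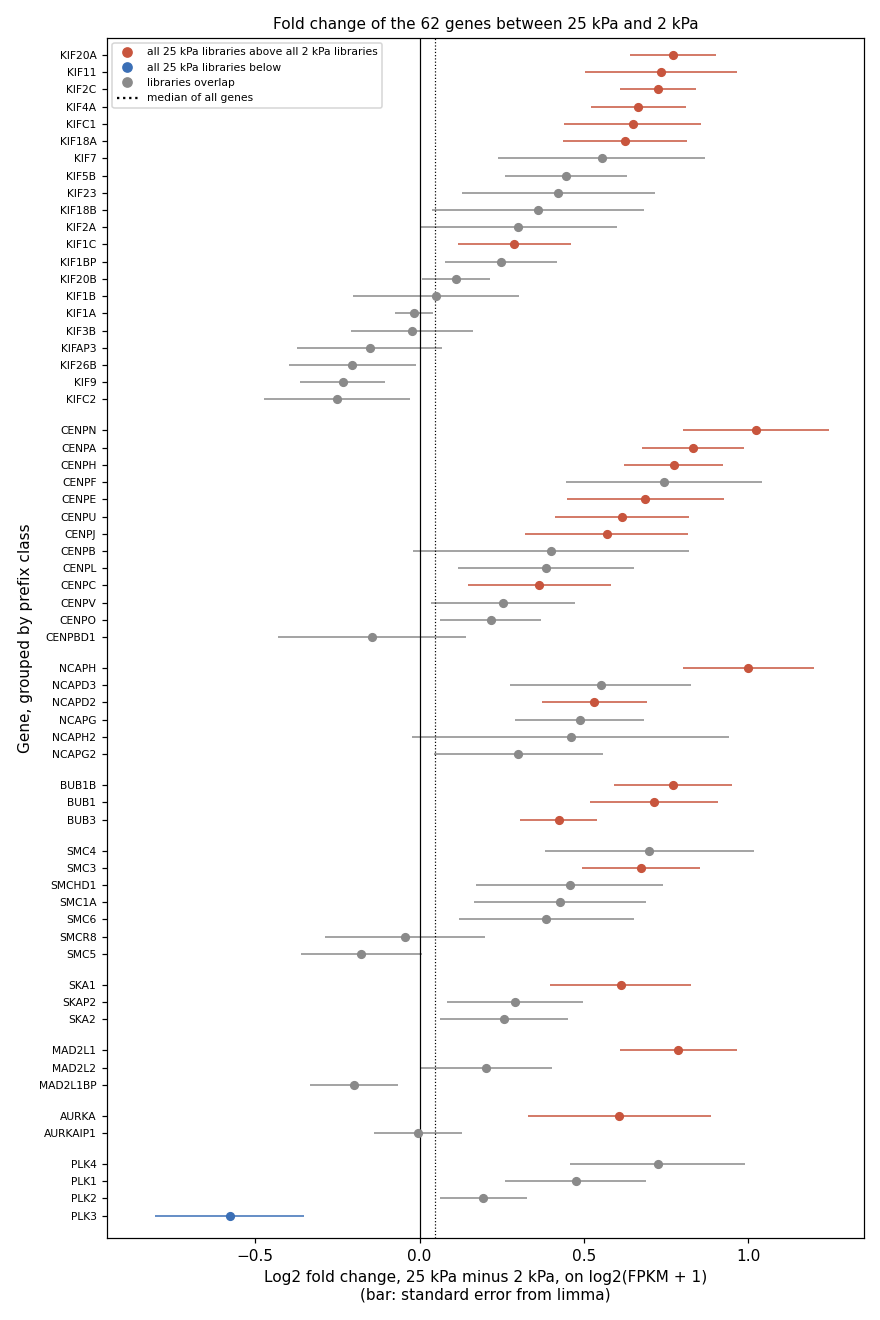
Each point is the log2 fold change of 1 of the 62 genes (horizontal axis, 25 kPa minus 2 kPa on log2(FPKM + 1)), with its standard error from limma as a bar, and genes are grouped by prefix on the vertical axis. Red points are the 23 genes whose 25 kPa libraries all lie above the 2 kPa libraries, the blue point is PLK3, whose 25 kPa libraries all lie below, and the dotted line is the median of all genes at 0.05.

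The difference between kinesins of different roles was not tested and is given by its values. All 9 kinesins of mitosis had a higher mean at 25 kPa (59.6% of all genes did), with a median log2 fold change of 0.65. On the deposited values 6 of them were without overlap, against 11.2% of all genes. With every library rescaled to the same FPKM sum that median was 0.54. KIF20A, KIF2C and KIFC1 then stayed without overlap. In KIF11, KIF4A and KIF18A the groups then overlapped, as replicate 2 at 25 kPa fell below replicate 2 at 2 kPa. The 12 other KIF genes, most of them motors of transport and cilia or partners of these, had 6 higher and 6 lower means. Of the 12, 1 was without overlap (KIF1C), and the median log2 fold change was 0.02. Among those with lower means, KIF26B, KIF9 and KIF1A were near the floor, at means of 0.84, 0.35 and 0.05 FPKM over the 6 libraries. All those with higher means were above 1 FPKM. The 12 include KIF2A, a relative of KIF2C that takes microtubules apart, also at spindle poles. Over the alternatives, the median of the 12 was lowest, at −0.055, without replicate 3 at 2 kPa. It was 0.16 without replicate 2 at 2 kPa and 0.15 without replicate 2 at 25 kPa. Over genes with a mean of at least 1 FPKM it was 0.25, but that setting drops KIF26B, KIF9 and KIF1A, so it is not a median of the same genes. The median of the mitotic kinesins ran from 0.54 to 0.76, and the same setting drops KIF20B from them. Within each library, the median deviation of the mitotic kinesins minus that of the others was −0.21, −0.33 and −0.23 at 2 kPa and 0.44, 0.35 and 0.11 at 25 kPa. The stiff libraries were all above the soft ones in this difference.

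Among the mitotic kinesins, KIF20A, a motor of the central spindle and cytokinesis, was at 24.2, 23.8 and 22.1 FPKM in the 2 kPa libraries and at 48.0, 37.4 and 37.1 FPKM in the 25 kPa libraries. The groups were far apart relative to their spread, with means of 23.4 ± 1.1 and 40.8 ± 6.2 FPKM (SD, n = 3 each) and a log2 fold change of 0.77 (SE 0.13, adjusted p = 0.0801 in limma). KIF2C, the centromeric kinesin that takes microtubules apart, was at 29.1, 26.3 and 25.0 FPKM at 2 kPa and at 49.4, 42.7 and 42.7 FPKM at 25 kPa, and its log2 fold change was 0.72 (SE 0.12). KIF11, the motor that pushes the spindle poles apart, was at 8.17, 8.31 and 5.70 FPKM at 2 kPa and at 16.2, 9.01 and 14.3 FPKM at 25 kPa. Here replicate 2 at 25 kPa stood just above the soft libraries, and the log2 fold change of 0.73 had an SE of 0.23 (limma adjusted p = 0.324). KIF4A, a chromokinesin that shapes chromosome arms and the midzone, was at 14.7, 15.1 and 12.3 FPKM at 2 kPa and at 24.8, 19.4 and 24.5 FPKM at 25 kPa. Its log2 fold change was 0.67 (SE 0.14, limma adjusted p = 0.165), and reads of its near-identical intronless copy KIF4B may be counted with it.

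KIF18A, which dampens the movements of chromosomes at the metaphase plate, was at 5.41, 5.78 and 4.75 FPKM at 2 kPa and at 10.2, 6.80 and 9.47 FPKM at 25 kPa, with a log2 fold change of 0.62 (SE 0.19). KIFC1, a motor that draws spindle poles together, was at 6.47, 5.43 and 3.60 FPKM at 2 kPa and at 8.43, 7.96 and 9.06 FPKM at 25 kPa, with a log2 fold change of 0.65 (SE 0.21). In both genes the groups did not overlap on the deposited values. KIF23, the kinesin of the centralspindlin complex, was at 1.56, 0.25 and 1.44 FPKM at 2 kPa and at 1.55, 2.02 and 1.44 FPKM at 25 kPa. Apart from the low replicate 2 at 2 kPa its groups lay together, and over the alternatives its log2 fold change ran from 0.09 to 0.98. KIF18B overlapped between groups with a log2 fold change of 0.36, and KIF20B did so at 0.20 to 0.52 FPKM, where little can be read.

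KIF5B, the main conventional kinesin of organelle transport, was the most abundant of the other KIF genes, at 21.7, 24.0 and 15.5 FPKM at 2 kPa and at 29.4, 22.8 and 31.7 FPKM at 25 kPa. Its groups overlapped through replicate 2 of each stiffness, and its log2 fold change was 0.45 (SE 0.18, limma adjusted p = 0.457). KIF1C, which carries vesicles along the microtubules of cell protrusions, was at 5.62, 5.48 and 4.34 FPKM at 2 kPa and at 6.49, 6.47 and 6.45 FPKM at 25 kPa. The groups were separate on the deposited values but overlapped with every library rescaled to the same FPKM sum. The log2 fold change was only 0.29 (SE 0.17, limma adjusted p = 0.625). KIF3B, a subunit of the ciliary kinesin-2 motor, had means of 12.1 ± 2.4 FPKM at 2 kPa and 11.8 ± 2.3 FPKM at 25 kPa, and KIFAP3, which binds that motor to cargo, had 3.20 ± 0.07 and 2.82 ± 0.69 FPKM (SD, n = 3). KIF1A, the motor of synaptic vesicle precursors in neurons, was at 0.02 to 0.08 FPKM in all libraries.

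**Figure D2:**
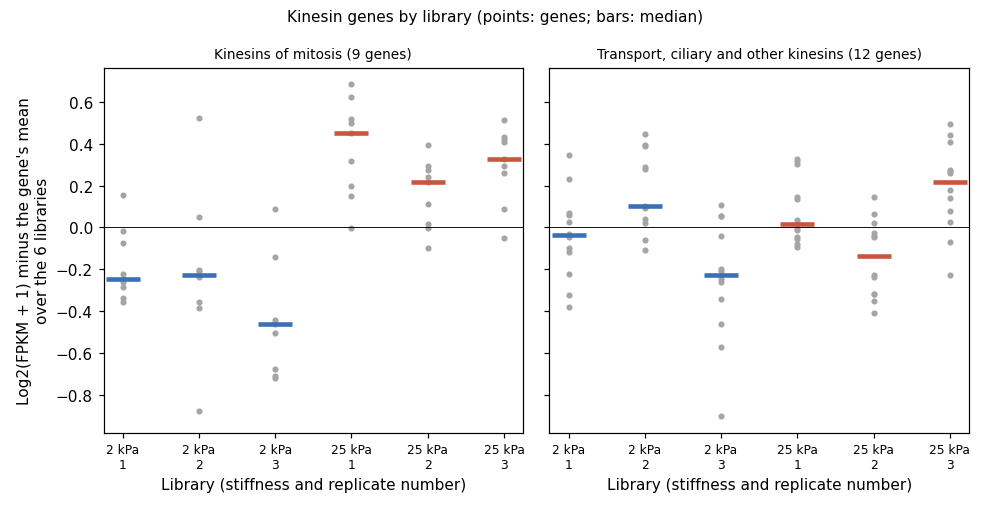
Grey points are single genes, as log2(FPKM + 1) minus the gene's own mean over the 6 libraries (vertical axis), and the wide bars are the median of the genes in each library (horizontal axis, stiffness and replicate number). The medians of the 9 kinesins of mitosis lie below 0 in each soft library and above 0 in each stiff library, whereas the medians of the 12 other KIF genes overlap between the stiffnesses.

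Promoters of genes that peak in G2 and mitosis often hold a CCAAT box, the site of the factor NF-Y, and a cell cycle genes homology region (CHR), the site of the DREAM and B-MYB-MuvB complexes. The stretches below are shown because they belong to the 6 mitotic kinesins that were higher without overlap on the deposited values and to KIF1C, the only other such KIF gene. Each is the 120 bases before the gene's start in RefSeq (GRCh38.p14), 5′ to 3′ on the strand of the gene, with capitals for CCAAT or its reverse complement ATTGG and for the CHR letters TTTGAA or TTCGAA or their reverse complements (TTCAAA, and TTCGAA, which is its own).
KIF20A: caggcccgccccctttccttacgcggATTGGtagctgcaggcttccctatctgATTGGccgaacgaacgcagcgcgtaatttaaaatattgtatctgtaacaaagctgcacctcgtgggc
KIFC1: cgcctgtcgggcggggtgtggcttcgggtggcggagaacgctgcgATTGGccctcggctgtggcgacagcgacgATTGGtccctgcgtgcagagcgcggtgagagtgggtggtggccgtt
KIF11: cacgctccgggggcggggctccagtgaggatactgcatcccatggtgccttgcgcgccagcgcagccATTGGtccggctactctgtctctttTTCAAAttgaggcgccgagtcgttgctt
KIF4A: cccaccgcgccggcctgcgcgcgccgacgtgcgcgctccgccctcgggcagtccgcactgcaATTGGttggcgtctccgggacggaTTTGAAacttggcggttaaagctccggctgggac
KIF18A: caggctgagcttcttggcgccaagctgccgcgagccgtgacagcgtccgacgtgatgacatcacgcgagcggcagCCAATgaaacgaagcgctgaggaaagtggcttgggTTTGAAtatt
KIF2C: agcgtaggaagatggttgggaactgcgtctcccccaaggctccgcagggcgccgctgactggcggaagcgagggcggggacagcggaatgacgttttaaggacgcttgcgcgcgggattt
KIF1C: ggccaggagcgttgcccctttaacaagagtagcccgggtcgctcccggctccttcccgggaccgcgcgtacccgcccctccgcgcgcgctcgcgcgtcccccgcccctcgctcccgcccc
KIF20A and KIFC1 hold a pair of CCAAT boxes on the reverse strand, KIF11, KIF4A and KIF18A hold 1 CCAAT box followed by 1 CHR, and KIF2C and KIF1C hold neither. The stretches lie at chr5:138178992-138179111 (KIF20A), chr6:33391703-33391822 (KIFC1), chr10:92593010-92593129 (KIF11), chrX:70289984-70290103 (KIF4A), chr1:44739717-44739836 (KIF2C) and chr17:4997830-4997949 (KIF1C) on the forward strand, and at chr11:28108157-28108276 (KIF18A) on the reverse strand.

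Motifs were counted on both strands in the 250 bases before the start, and 54 of the 62 genes matched the RefSeq promoter table. Among the mitotic kinesins, 8 of 9 held a CCAAT box (88.9%) and 4 of 9 a CHR (44.4%). Among the other KIF genes, 4 of 10 held a CCAAT box (40.0%) and 1 of 10 a CHR. Of all 27305 promoters in that table, 33.0% held a CCAAT box and 14.6% a CHR, and of the 6826 promoters of genes in the FPKM table, 35.5% and 9.82% did. Of the 20 matched genes that were higher without overlap, 13 held a CCAAT box (65.0%) and 8 a CHR (40.0%), against 11 (32.4%) and 6 (17.6%) of the other 34. These counts describe letters in a window and were not tested.

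At the centromere, all 8 genes of the inner kinetochore had higher means at 25 kPa (59.6% of all genes did), and 5 were without overlap, against 11.2% of all genes. Their median log2 fold change was 0.51. CENPN, which binds the CENPA nucleosome, was at 7.47, 4.99 and 9.49 FPKM at 2 kPa and at 16.1, 12.9 and 17.8 FPKM at 25 kPa, a log2 fold change of 1.02 (SE 0.22, limma adjusted p = 0.165), and 0.81 without replicate 2 at 2 kPa. CENPA, the histone that marks the centromere, was at 10.5, 10.0 and 11.9 FPKM at 2 kPa and at 24.4, 17.6 and 18.5 FPKM at 25 kPa. The soft libraries lay close together and all stiff libraries well above them, with means of 10.8 ± 1.0 and 20.2 ± 3.7 FPKM (SD, n = 3) and a log2 fold change of 0.83 (SE 0.15, limma adjusted p = 0.108). CENPH, a subunit that links the inner to the outer kinetochore, had means of 13.4 ± 1.3 and 23.8 ± 4.2 FPKM and a log2 fold change of 0.77 (SE 0.15, limma adjusted p = 0.120).

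CENPU and CENPC, which also belong to the inner kinetochore, were higher without overlap, with log2 fold changes of 0.62 and 0.36. CENPO overlapped between groups with 0.22. CENPB, which binds the repeats of centromeric DNA, varied widely, from 3.46 to 13.7 FPKM among the stiff libraries alone, and its log2 fold change of 0.40 was smaller than its SE of 0.42. CENPL was at 0.10 to 1.68 FPKM and overlapped as well.

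The outer kinetochore and the remaining CENP genes had higher means at 25 kPa in 4 of 4 (59.6% of all genes did). Of these, 2 were without overlap, against 11.2% of all genes. CENPF, a large protein of the nuclear matrix and kinetochore, was at 9.96, 8.92 and 4.34 FPKM at 2 kPa and at 13.7, 9.38 and 16.8 FPKM at 25 kPa. One stiff library, replicate 2, fell within the range of the soft ones, and the log2 fold change was 0.74 (SE 0.30, limma adjusted p = 0.444). CENPE, the kinesin that carries chromosomes to the spindle equator, was listed at 0.99, 0.24 and 0.06 FPKM at 2 kPa and at 1.01, 1.11 and 1.57 FPKM at 25 kPa. Replicate 1 at 2 kPa almost reached the stiff libraries, and at these low levels the log2 fold change ran from 0.50 to 2.23 over the alternatives. CENPJ, a centriole protein that shares the prefix, was higher without overlap (log2 fold change 0.57), and CENPV, a protein of the mitotic spindle and midzone, overlapped with 0.25.

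Condensin exists in a form I, which reaches chromosomes after the nuclear envelope breaks down, and a form II, which is nuclear throughout. All 3 subunits particular to condensin I had higher means at 25 kPa (59.6% of all genes did), with a median log2 fold change of 0.53. Of these, 2 were without overlap, against 11.2% of all genes. The 3 subunits of condensin II also had higher means, all with overlap, and a median of 0.46. NCAPD2, a HEAT-repeat subunit of condensin I, was at 44.4, 55.2 and 37.2 FPKM at 2 kPa and at 75.6, 60.6 and 61.3 FPKM at 25 kPa, a log2 fold change of 0.53 (SE 0.16, limma adjusted p = 0.300). NCAPH, the kleisin that closes the ring of condensin I, was at 2.01, 2.41 and 1.90 FPKM at 2 kPa and at 4.96, 5.58 and 5.07 FPKM at 25 kPa. Its groups did not overlap, and its log2 fold change was 1.00 (SE 0.20, limma adjusted p = 0.121). NCAPG was at 9.38, 8.10 and 7.58 FPKM at 2 kPa and at 13.6, 8.87 and 14.5 FPKM at 25 kPa, where replicate 2 again lay among the soft libraries.

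In condensin II, NCAPD3 was at 4.41, 7.55 and 3.09 FPKM at 2 kPa and at 9.0, 6.43 and 7.0 FPKM at 25 kPa. NCAPH2, the kleisin of that form, was at 0.14, 3.32 and 1.52 FPKM at 2 kPa and at 1.13, 2.17 and 3.78 FPKM at 25 kPa. Its difference rested on the low replicate 1 at 2 kPa: the log2 fold change was 0.46 (SE 0.48) and became −0.051 without that library. NCAPG2 overlapped between the groups, with a log2 fold change of 0.30 (SE 0.26). The difference between the forms was not tested across samples, and the median deviation of condensin I minus that of condensin II was 0.07, −0.58 and −0.43 in the soft libraries and 0.15, 0.06 and 0.06 in the stiff ones, so that replicate 1 at 2 kPa lay among the stiff libraries.

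Of the ATPase cores, SMC4, which is common to both condensins, was at 1.91, 0.34 and 0.43 FPKM at 2 kPa and at 2.43, 1.31 and 2.01 FPKM at 25 kPa. Replicate 1 at 2 kPa lay within the stiff range, and the log2 fold change was 0.70 (SE 0.32, limma adjusted p = 0.514). SMC3, of the cohesin core, was at 8.13, 8.27 and 5.93 FPKM at 2 kPa and at 13.0, 10.3 and 14.0 FPKM at 25 kPa, without overlap (log2 fold change 0.67, SE 0.18, limma adjusted p = 0.234). Its partner SMC1A was at 10.8, 12.1 and 6.63 FPKM at 2 kPa and at 15.5, 9.19 and 16.1 FPKM at 25 kPa, and its groups overlapped through replicate 2 at 25 kPa. SMC5 and SMC6, the core of the SMC5/6 complex, had log2 fold changes of −0.18 and 0.39, and SMCHD1, which acts on the inactive X chromosome, had 0.46, all with overlap.

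On the deposited values, all 3 checkpoint genes of the BUB class were higher at 25 kPa without overlap, against 11.2% of all genes. With every library rescaled to the same FPKM sum, only BUB1B stayed without overlap, against 5.33% of all genes. In BUB1 and BUB3 replicate 2 at 25 kPa then fell below replicate 2 at 2 kPa. The median log2 fold change of the class was then 0.59. BUB1, a kinase of the kinetochore, was at 15.4, 17.5 and 12.8 FPKM at 2 kPa and at 31.5, 19.0 and 27.3 FPKM at 25 kPa (log2 fold change 0.71, SE 0.20, limma adjusted p = 0.252). BUB1B, which encodes the checkpoint protein BubR1, was at 12.3, 9.52 and 8.33 FPKM at 2 kPa and at 20.8, 14.8 and 17.9 FPKM at 25 kPa (log2 fold change 0.77, SE 0.18, limma adjusted p = 0.192). BUB3, which brings both to the kinetochore, was at 22.1, 20.1 and 21.9 FPKM at 2 kPa and at 31.0, 25.9 and 30.3 FPKM at 25 kPa. BUB3 had the narrowest groups of the BUB genes and the smallest difference, with a log2 fold change of 0.42 (SE 0.12, limma adjusted p = 0.258).

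MAD2L1, the MAD2 protein that blocks the anaphase-promoting complex, was at 37.0, 23.1 and 25.7 FPKM at 2 kPa and at 55.5, 44.2 and 48.0 FPKM at 25 kPa. All stiff libraries were above all soft ones, and the log2 fold change was 0.79 (SE 0.18, limma adjusted p = 0.178). The other genes of that prefix have other roles and overlapped between the groups. MAD2L2, a subunit of polymerase zeta and shieldin in DNA repair, was at 15.8, 11.96 and 14.2 FPKM at 2 kPa and at 20.2, 17.6 and 11.8 FPKM at 25 kPa (log2 fold change 0.20, SE 0.20). MAD2L1BP, which helps to take MAD2 out of its active form and so silences the checkpoint, was at 20.2, 16.9 and 20.6 FPKM at 2 kPa and at 15.8, 18.6 and 15.5 FPKM at 25 kPa, with a lower mean on the stiff gel (log2 fold change −0.20, SE 0.13).

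**Figure D3:**
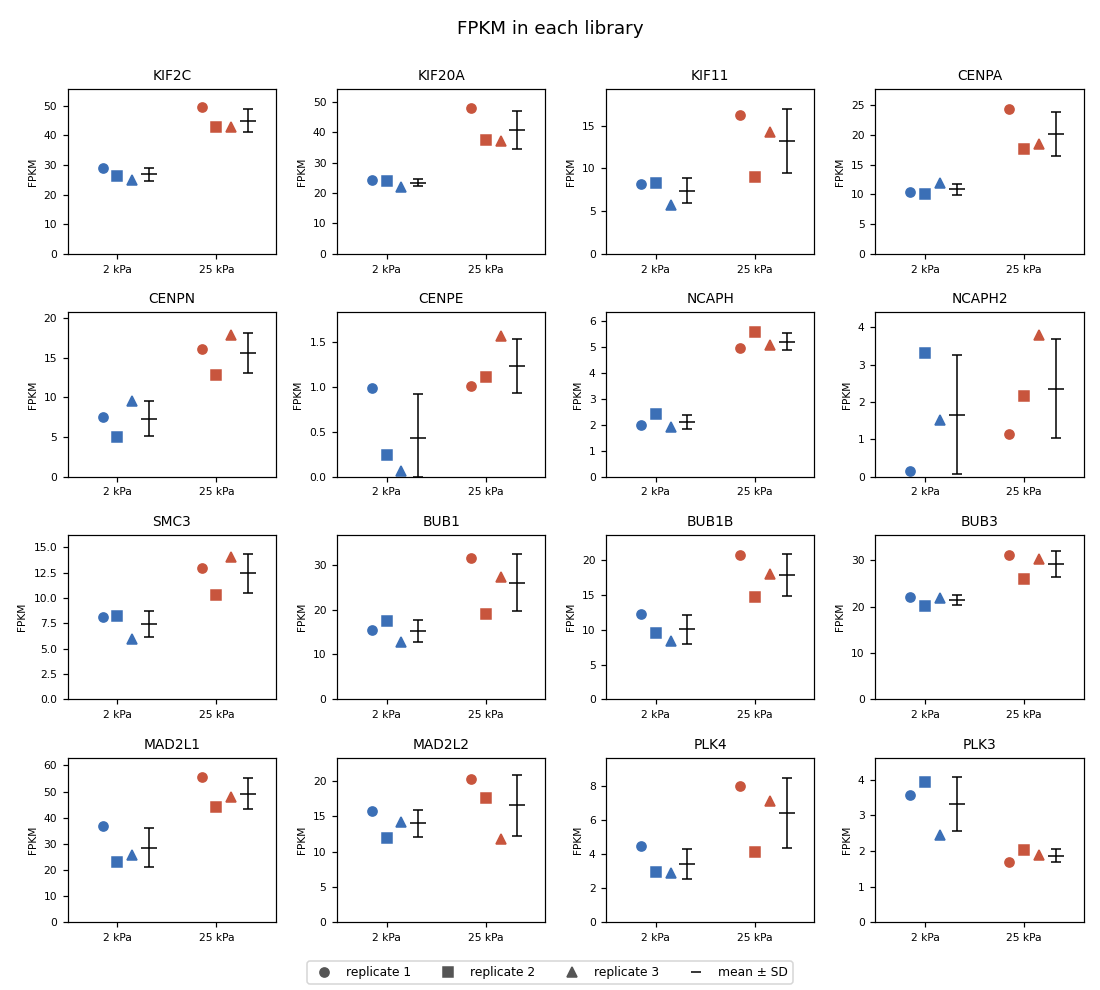
FPKM (vertical axes, from 0) of 16 genes in each library at 2 kPa (blue) and 25 kPa (red), with a symbol for each replicate number and the mean ± SD of 3 libraries in black (the lower bar of CENPE ends at 0). KIF2C, KIF20A, CENPA, NCAPH, BUB3 and MAD2L1 show 2 separate groups, NCAPH2 and MAD2L2 show groups that overlap, and PLK3 shows lower values at 25 kPa.

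SKA1, which couples kinetochores to shortening microtubules, was at 1.69, 1.92 and 1.24 FPKM at 2 kPa and at 2.73, 3.10 and 3.10 FPKM at 25 kPa, without overlap (log2 fold change 0.61, SE 0.21, limma adjusted p = 0.372). SKA2, from the same complex, was at 0.87, 1.30 and 0.99 FPKM at 2 kPa and at 1.49, 1.13 and 1.75 FPKM at 25 kPa, with overlap. SKAP2, which shares only the prefix, was at 4.86, 6.68 and 4.43 FPKM at 2 kPa and at 6.79, 5.49 and 7.84 FPKM at 25 kPa. Its log2 fold change of 0.29 was near that of SKA2, 0.26.

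AURKA, the Aurora kinase of the spindle poles, was at 5.51, 5.35 and 2.51 FPKM at 2 kPa and at 6.50, 9.01 and 5.83 FPKM at 25 kPa. The groups did not overlap, but the spread within each was wide, and the log2 fold change of 0.61 had an SE of 0.28 (limma adjusted p = 0.516). AURKAIP1 was at 11.5, 10.3 and 11.7 FPKM at 2 kPa and at 12.04, 10.7 and 10.6 FPKM at 25 kPa, a log2 fold change of −0.01 (SE 0.13).

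The Polo-like kinases had no common direction. PLK1, which drives mitotic entry and spindle assembly, was at 13.2, 19.3 and 9.83 FPKM at 2 kPa and at 21.3, 18.8 and 17.9 FPKM at 25 kPa (log2 fold change 0.48, SE 0.21, limma adjusted p = 0.511). PLK4, which starts the duplication of centrioles, was at 4.46, 2.93 and 2.88 FPKM at 2 kPa and at 8.03, 4.10 and 7.14 FPKM at 25 kPa. In both genes 1 library broke the separation of the groups, replicate 2 at 2 kPa for PLK1 and replicate 2 at 25 kPa for PLK4, whose log2 fold change was 0.72 (SE 0.27). PLK2, which is induced by stress and growth signals, was at 43.8, 44.1 and 39.3 FPKM at 2 kPa and at 57.9, 43.6 and 45.4 FPKM at 25 kPa. PLK3, a kinase linked to stress responses and to interphase, was at 3.57, 3.93 and 2.46 FPKM at 2 kPa and at 1.68, 2.04 and 1.88 FPKM at 25 kPa. On the deposited values it was the only gene of the 62 with every stiff library below every soft one, with means of 3.32 ± 0.77 and 1.87 ± 0.18 FPKM (SD, n = 3) and a log2 fold change of −0.58 (SE 0.23, limma adjusted p = 0.433).

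Set side by side, the classes had median log2 fold changes of 0.71 (BUB), 0.57 (CENP), 0.51 (NCAP), 0.43 (SMC), 0.33 (PLK), 0.30 (AURK), 0.30 (KIF), 0.29 (SKA) and 0.20 (MAD2). With 2 to 21 genes each and gene values that overlapped between classes, no class was shown to differ from its neighbours in this order. The order changed over the alternatives: CENP led without replicate 1 at 25 kPa (0.64, against 0.56 for BUB) and with a pseudocount of 0.01 (0.76, against 0.75), NCAP led without replicate 2 at 2 kPa (0.76, against 0.74 for BUB), and without replicate 2 at 25 kPa BUB (0.89) was followed by SMC (0.67), NCAP (0.61) and CENP (0.56). In number of genes, 7 of 13 CENP, 7 of 21 KIF, 2 of 6 NCAP, 1 of 7 SMC (14.3%) and 0 of 4 PLK genes were higher without overlap, against 11.2% of all genes.

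**Figure D4:**
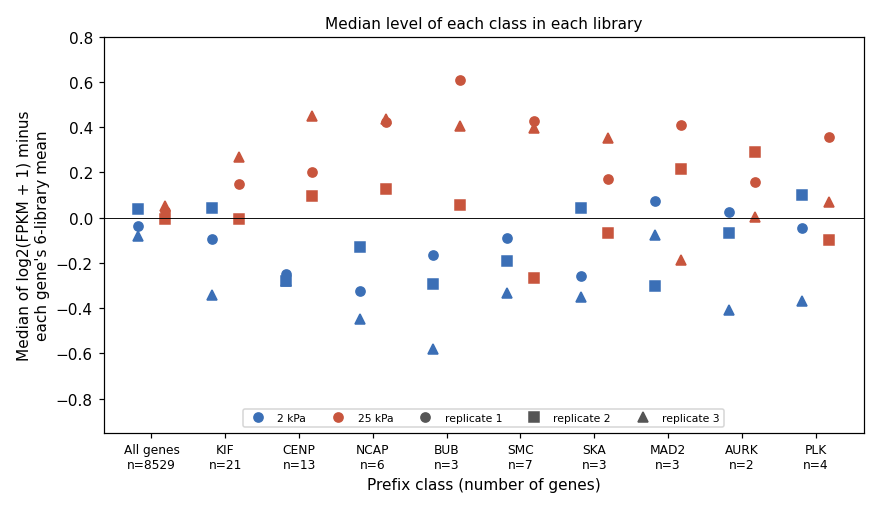
For each prefix class and for all genes (horizontal axis, with the number of genes), symbols give the median in each library of log2(FPKM + 1) minus each gene's own mean over the 6 libraries (vertical axis), in blue at 2 kPa and in red at 25 kPa. The 3 libraries of each stiffness lie apart in the CENP, NCAP and BUB classes, overlap in the KIF, SMC, SKA, MAD2, AURK and PLK classes, and all genes stay near 0.

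The libraries differed within a stiffness. Replicate 3 at 2 kPa was the lowest of its group in 41 of the 62 genes (66.1%, against 44.9% of all genes), and replicate 2 at 25 kPa was the lowest of its group in 38 (61.3%, against 43.2%). On the deposited values, the summed FPKM of the 62 genes was 564, 561 and 475 at 2 kPa and 843, 679 and 763 at 25 kPa, without overlap. The sums over all genes were lowest in replicate 2 at 2 kPa (201030) and highest in replicate 2 at 25 kPa (263028). As a share of these sums, the 62 genes were lower in replicate 2 at 25 kPa than in replicate 2 at 2 kPa, so the groups then overlapped. Leaving out replicate 2 at 25 kPa gave 36 genes higher without overlap (21.2% of all genes), and leaving out replicate 2 at 2 kPa gave 35 (21.1% of all genes), where fewer libraries make separation easier for every gene.

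Other genes of the mitotic apparatus, from a list of symbols without these prefixes, were summarised in the same way. That list was also chosen with earlier results of these data known. It holds some CENP family genes under older symbols, such as APITD1, STRA13 and ITGB3BP. Of its 31 genes in the table, 27 had a higher mean at 25 kPa (87.1%, against 59.6% of all genes), 18 were higher without overlap (58.1%, against 11.2%), 0 were lower without overlap (against 4.78%), and the median log2 fold change was 0.53. In limma 0 of the 31 passed an adjusted p of 0.05, and 18 had an unadjusted p under 0.05, all of them higher (58.1%, against 6.96% of all genes). NDC80, which binds microtubules at the outer kinetochore, was at a mean of 12.2 FPKM at 2 kPa and 24.3 FPKM at 25 kPa and had the smallest adjusted p of the list in limma, 0.108. TTK, the kinase that starts the checkpoint signal, had means of 8.22 and 15.5 FPKM, BIRC5, the survivin subunit that places Aurora B, had 24.7 and 39.7 FPKM, and PTTG1, the securin that restrains separase, had 148 and 244 FPKM.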

How the data were processed

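RNA of SW480 cells on gels of 2 kPa and 25 kPa was sequenced by BGI on an Illumina HiSeq. The authors deposited 1 table of FPKM values, normalised by them for gene length and mapped fragments, for each gene symbol and library, with no pooling, and 0 columns lacked a sample. The submitters' processing notes name HISAT, StringTie, Bowtie2, RSEM and hg18, without roles. The methods mention a small RNA step, although the table holds mRNA, and name DESeq2, a test of counts that was not run on FPKM. No steps of whole reads were found, so depth is unknown and precision rests on 3 libraries per group.

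The values as deposited in FPKM were put on the scale log2(FPKM + 1) and tested for all 8529 genes with limma 3.58.1 in R 4.3.3 (lmFit, eBayes with trend, two-sided, Benjamini-Hochberg, threshold 0.05), and 55 of the 62 genes had a mean of at least 1 FPKM. A fold change on this scale understates that of low genes. Counts were summarised in Python 3.11.15 with pandas 2.3.3. The program was tested on simulated data. The prefixes that define the members and the lists (roles of the genes, other mitotic genes, epithelial markers, and immune, endothelial and fibroblast markers) were chosen with earlier results of these data known. Genes with values in every library are a list of known members of each role, plus, in each class, the 2 most raised and the 2 most lowered among genes without overlap, and all genes of classes under 4. KIF4A, KIFC1 and KIF1C, and the genes named with fewer values, were added after their values were seen. Alternatives were pseudocounts of 0.1 and 0.01, a mean of at least 1 FPKM, equal sums, quantile normalisation, median centring, no trend, the replicate block, each library left out and the 4 genes set apart left out. Promoters came from RefSeq (GRCh38.p14), whose build differs from hg18 and bears on no FPKM value.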

Additional observations from a re-analysis of the deposited data

How the results depend on the processing

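In each of the 14 alternatives that were fitted anew, 0 of the 62 genes passed an adjusted p of 0.05 in limma. The smallest adjusted p among them was 0.0628 to 0.333. The fit over genes with a mean of at least 1 FPKM, which gave 0.0628, held 5808 genes and 55 of the 62. The median log2 fold change of the 62 genes, or of the 55 in that fit, was above 0 in each, at 0.33 to 0.52. The fits without a trend and with the replicate block cannot move a fold change, so their medians could not differ from the main fit. The number higher without overlap, 23, became 11 with equal library sums and ran from 23 to 36 with 1 library left out, with 35 without replicate 2 at 2 kPa and 36 without replicate 2 at 25 kPa. At an unadjusted p under 0.05 in limma, the 24 genes higher became 12 with equal sums (2 lower) and 17 to 28 with 1 library left out, 17 without replicate 3 of either stiffness. The shares of all genes at that p were counted for the main fit only. Equal sums lowered the median of all genes from 0.05 to −0.02. For single genes, 456 values kept their direction and side of the threshold and 5 reversed. Without a trend, with the replicate block or over genes with a mean of at least 1 FPKM, the direction of a gene could not change. With 1 library left out, the log2 fold change of NCAPH2 ran from −0.051 to 0.91, below 0 without replicate 1 at 2 kPa, and that of AURKAIP1 ran from −0.060 to 0.026.

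The values showed no sign that replicate numbers pair the libraries: the correlations of the deviations of same-numbered libraries were 0.11, −0.27 and −0.12. So few correlations cannot exclude that same-numbered libraries were handled together. The correlations of differently numbered libraries ran from −0.24 to 0.29. The lowest was replicate 3 at 2 kPa with replicate 1 at 25 kPa, and the highest was replicate 3 at 2 kPa with replicate 2 at 25 kPa. With the replicate block, 0 of the 62 genes passed and the smallest adjusted p in limma was 0.222. Each replicate number occurs once in each group, so the block cannot move a fold change and the median of 0.42 is no check. At an unadjusted p under 0.05 in limma, 23 genes were higher and 0 lower, without a count over all genes. With 3 libraries per group and unknown depth, values near 1 FPKM carry an unknown counting error.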

Other observations

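Levels per length differed widely within 1 complex. Over the 6 libraries, NCAPD2 had a mean of 55.7 FPKM, whereas its partners in condensin I, NCAPG and NCAPH, had 10.3 and 3.65 FPKM, and SMC4, which is part of every condensin complex, had 1.41 FPKM. In condensin II the subunits NCAPD3, NCAPG2 and NCAPH2 had 6.25, 3.32 and 2.01 FPKM. The ranges of NCAPD2 (37.2 to 75.6 FPKM) and NCAPG (7.58 to 14.5 FPKM) did not meet over the libraries, and neither did those of NCAPG and NCAPH (1.90 to 5.58 FPKM), whereas those of NCAPH and SMC4 (0.34 to 2.43 FPKM) did. Among the checkpoint genes MAD2L1 stood at 38.9 FPKM, above BUB3 (25.2 FPKM), BUB1 (20.6 FPKM) and BUB1B (13.9 FPKM), and its range (23.1 to 55.5 FPKM) met those of BUB3 and BUB1 but not that of BUB1B (8.33 to 20.8 FPKM). Which transcripts the FPKM of a gene covers is not given in the sources used here.

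A contrast within the kinetochore motors is that CENPE was listed at a mean of 0.83 FPKM and KIF2C at 35.9 FPKM. KIF20B was at 0.33 FPKM, against 32.1 FPKM for KIF20A.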
